A study of Mus musculus with 8 samples.

Results

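The genes of 7 transcription factors that drive epithelial to mesenchymal transition (EMT) were examined for open chromatin: Zeb1, Zeb2, Snai1, Snai2, Twist1, Twist2 and Prrx1. A called ATAC-seq peak was assigned to a gene when it overlapped the gene body or lay within 20 kb of a transcription start site (TSS) of GENCODE M21. These 7 were among 53843 annotated genes on chromosomes 1 to 19 and X. Their windows ranged from 40.0 kb for Snai1, Snai2 and Twist1 to 203.6 kb for Zeb1, so numbers of peaks are compared between libraries and not between genes. Merging overlapping or touching peaks across the libraries gave 183173 regions, of which 74 lay in the windows of the 7 genes.

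In EMT, epithelial cells lose their junctions and polarity and gain mesenchymal traits. The zinc finger proteins SNAI1 and SNAI2 and the zinc finger homeodomain proteins ZEB1 and ZEB2 bind E-boxes and repress epithelial genes such as Cdh1, which encodes E-cadherin. TWIST1 and TWIST2 are basic helix-loop-helix factors, and PRRX1 is a paired-related homeobox factor typical of mesenchyme. In the mammary gland, SNAI2 is a factor of the basal epithelial layer, while ZEB1, TWIST2 and PRRX1 are typical of stromal and mesenchymal cells. LATS1 is a Hippo pathway kinase that restrains the coactivators YAP and TAZ, which act through TEAD factors.

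The libraries came from cell lines established from mammary tumors of PyMT mice of the strain labelled FBV/N. All groups carried this oncogene, the polyoma middle T antigen driven by the mouse mammary tumor virus promoter. The lines were WT or Lats1-CKO, that is, with a conditional knockout of Lats1; the sources used here give no Cre driver, and tie no mouse age to the lines. Cells with high CD49f were sorted into an EpCAM-high population, called luminal, and an EpCAM-low population, called basal-like, and grown briefly in culture, with 2 libraries in each of 4 groups. The WT luminal libraries are named BM1 and BM5, the WT basal-like ones BM2 and BM6, the Lats1-CKO luminal ones BM3 and BM7 and the Lats1-CKO basal-like ones BM4 and BM8. The labels give no pairing between them. Since the labels do not say whether the libraries came from separate lines or tumors, the p-values measure only the spread between these libraries.

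The libraries held 51497 to 99022 peaks, except BM3, which had 14753. BM3 therefore stood apart, and the main comparisons are given with and without it. The lists hold no read counts, so the depth of a library is unknown and counting errors cannot be derived; a site without a listed peak may be closed or covered too thinly to be called. Each peak is described by its score percentile, its rank by score among the peaks of the same library, with 100 for the highest. A region without a peak was set to 0. A start-site peak is one that lies at most 1 kb from a TSS of the gene. Of the 10 luminal markers, 9 to 10 had a start-site peak in WT luminal libraries, 4 to 9 in Lats1-CKO luminal, 7 to 9 in WT basal-like and 6 in both Lats1-CKO basal-like libraries. Of the 10 basal-like markers the ranges were 5, 3 to 7, 5, and 4 to 6, and Trp63 had no such peak in any library, so these markers did not set the basal-like libraries apart. Lats1 had such a peak in every library but BM3; the deleted part is not given in the sources, so this checks nothing about the deletion.

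In WT cells, the 7 genes together held 31 (BM1) and 20 (BM5) peaks in the luminal and 31 (BM2) and 22 (BM6) in the basal-like libraries. In Lats1-CKO cells they held 5 (BM3) and 33 (BM7) in the luminal and 44 (BM4) and 49 (BM8) in the basal-like libraries. The Lats1-CKO basal-like libraries thus had the highest numbers, and they also had long lists. Per 10000 peaks of the library, the windows held 4.26 and 3.40 peaks in WT luminal, 4.40 and 4.27 in WT basal-like, 3.39 and 3.53 in Lats1-CKO luminal and 5.10 and 4.95 in Lats1-CKO basal-like libraries. On that scale the basal-like libraries lay above the luminal ones, by a narrow margin between BM6 and BM1. With at most 50000 peaks per library the order held, again narrowly, with 22 peaks in BM6 and 21 in BM1. With the 10000 highest-scoring peaks it did not, with 9 (BM2), 7 (BM6), 7 (BM4) and 4 (BM8) against 6 (BM1), 3 (BM5), 4 (BM3) and 4 (BM7). Counted by regions, 27.0% of the 74 had a peak in BM6 and 39.2% in BM1, against 27.3% and 38.8% of all regions. BM6 was thus just below its share and BM1 just above, while the other basal-like libraries lay above and the other luminal ones below. The order of basal-like above luminal libraries was not tested, and no share over all genes was made for it. A start-site peak was found for 5 and 4 of the 7 genes in WT luminal, 6 and 4 in WT basal-like, 3 and 5 in Lats1-CKO luminal and 6 and 6 in Lats1-CKO basal-like libraries. For all protein-coding genes the share with such a peak ranged from 34.6% in BM3 to 59.3% in BM7.

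**Figure D1:**
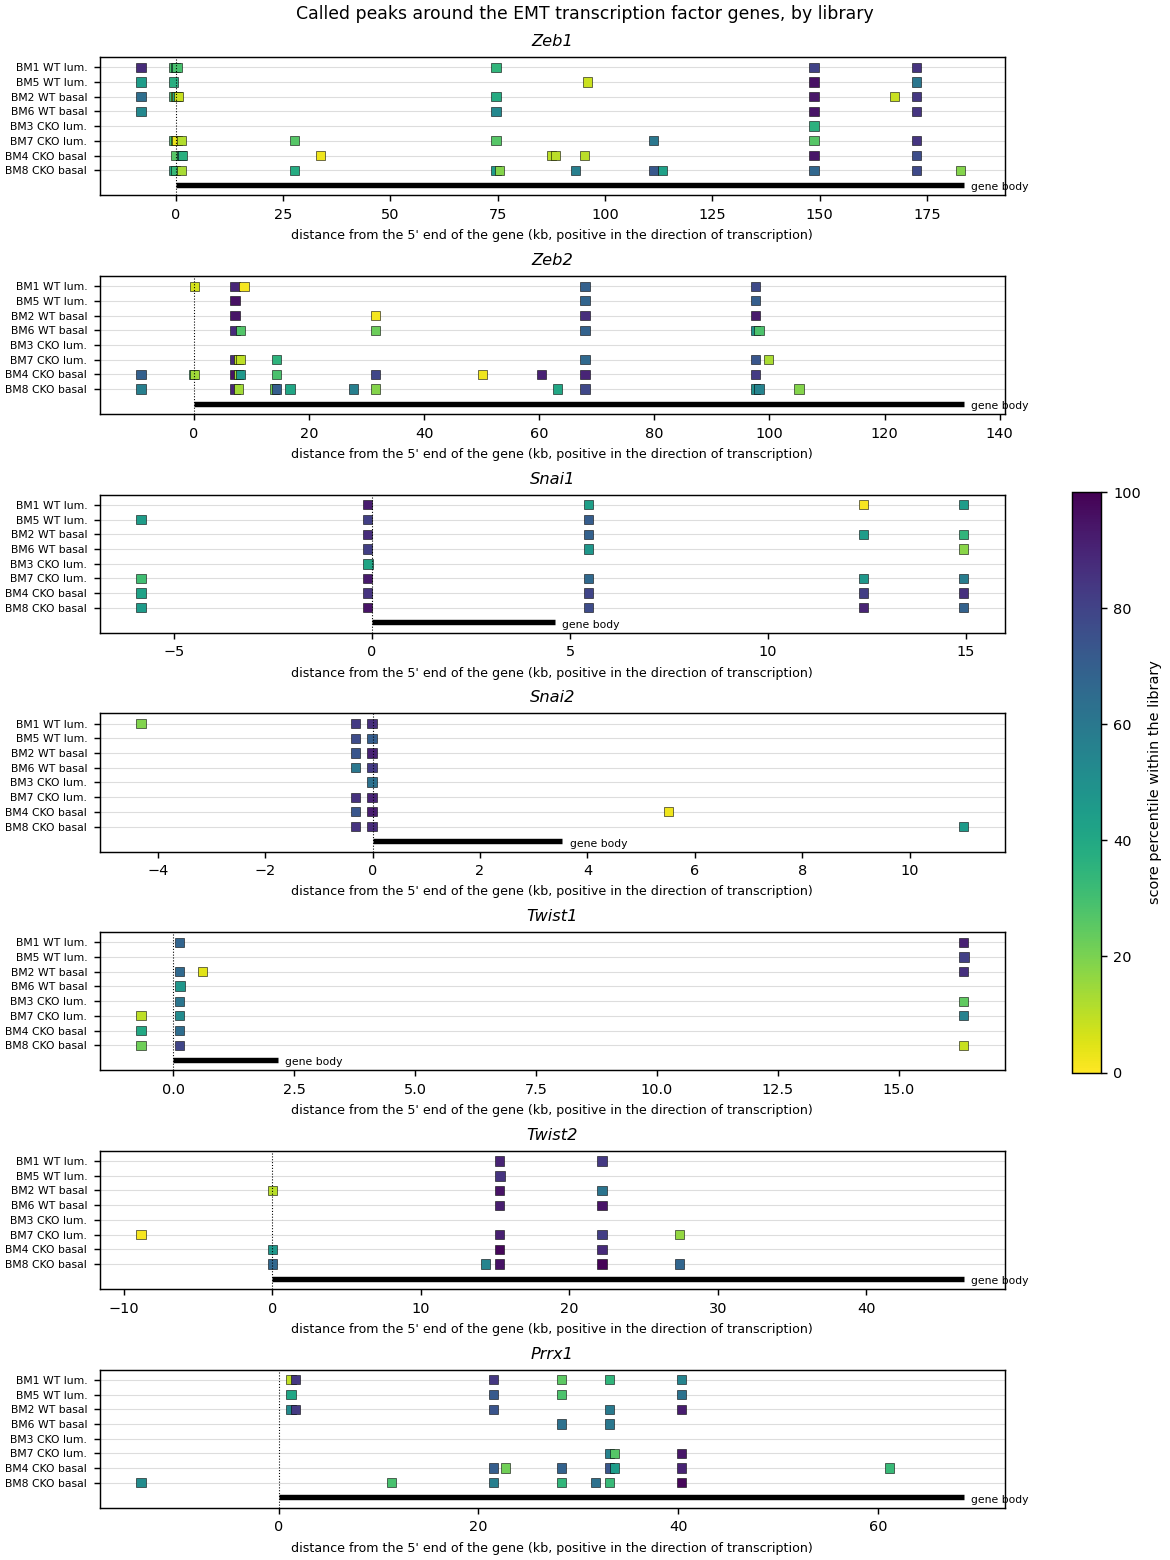
Called peaks of each gene by distance from its 5′ end (x axis, kb, positive in the direction of transcription) in the 8 libraries (y axis, grouped by genotype and sorted population). Color gives the score percentile within the library from 0 to 100, and the black bar is the gene body; Snai1 and Snai2 have a start-site peak in all 8 libraries, while Prrx1 has peaks only at a distance from its start sites.

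Snai1 (ENSMUSG00000042821, chr2:167538195-167542814 of mm10, plus strand) had an open start site in every library. The region over the TSS, at chr2:167537910-167538249 and reaching into the 5′ UTR, was 1 of 3 of the 74 regions with a peak in all 8 libraries (4.05%, against 5.95% of all regions). Its score percentile was 92.5 (BM1) and 81.3 (BM5) in luminal and 87.5 (BM2) and 81.5 (BM6) in basal-like WT libraries, and 41.0 (BM3) and 93.3 (BM7) in luminal and 84.9 (BM4) and 94.5 (BM8) in basal-like Lats1-CKO libraries. Apart from BM3 the groups overlapped within a narrow range. Another region, 5466 bp downstream of the TSS, was called in every library but BM3 with percentiles from 43.8 (BM1) to 79.5 (BM4). Beyond the gene lay a pair of regions with other patterns. At chr2:167550440-167550749, 12400 bp downstream of the TSS, the percentile was 1.35 (BM1), 45.0 (BM2) and 0 in BM5 and BM6, against 46.9 (BM7), 81.7 (BM4) and 89.8 (BM8), with no peak in BM3. At chr2:167552885-167553385, 14940 bp downstream and over an exon of the gene Gm11476, it was 45.2 (BM1), 0 (BM5), 34.6 (BM2) and 17.9 (BM6), against 57.8 (BM7), 86.1 (BM4) and 68.8 (BM8), with no peak in BM3. In both regions the 3 Lats1-CKO libraries other than BM3 lay above the 4 WT libraries.
The reference sequence of the promoter side of the start-site peak and of the centers of these downstream regions is shown. The first was open throughout, and the others were separated by genotype over the whole lists only when BM3 was left out. The CAGGTG E-box that SNAI and ZEB proteins recognize, the AP-1 motif TGAGTCA and the TEAD motif GGAATG, each on either strand and so also as its reverse complement, are in capitals, here and for the other genes.
Snai1 promoter, chr2:167537910-167538194, plus strand: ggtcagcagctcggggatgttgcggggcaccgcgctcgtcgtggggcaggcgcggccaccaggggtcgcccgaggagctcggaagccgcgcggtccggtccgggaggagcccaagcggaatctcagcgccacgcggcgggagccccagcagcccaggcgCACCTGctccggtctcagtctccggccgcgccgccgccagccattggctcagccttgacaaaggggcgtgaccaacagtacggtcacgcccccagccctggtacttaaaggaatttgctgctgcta
Snai1 downstream 1, chr2:167550445-167550744, plus strand: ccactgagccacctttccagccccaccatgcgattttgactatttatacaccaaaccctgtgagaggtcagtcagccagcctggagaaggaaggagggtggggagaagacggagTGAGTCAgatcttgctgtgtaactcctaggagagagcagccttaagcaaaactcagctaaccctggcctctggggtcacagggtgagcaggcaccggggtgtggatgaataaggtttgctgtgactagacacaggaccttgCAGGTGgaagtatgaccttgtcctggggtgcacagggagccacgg
Snai1 downstream 2, chr2:167552985-167553284, plus strand: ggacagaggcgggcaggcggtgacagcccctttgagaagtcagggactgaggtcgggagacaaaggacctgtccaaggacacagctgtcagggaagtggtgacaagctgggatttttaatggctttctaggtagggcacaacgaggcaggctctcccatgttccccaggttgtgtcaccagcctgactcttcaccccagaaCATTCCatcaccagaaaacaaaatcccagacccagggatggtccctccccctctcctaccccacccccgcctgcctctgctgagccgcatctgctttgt
The promoter stretch held 1 CAGGTG, on the minus strand, which 18.5% of all regions hold in a stretch of the same length, and had a GC content of 70.5%. The nearer downstream stretch held 1 AP-1 motif and 1 CAGGTG, and the farther stretch 1 TEAD motif; of all regions, 23.8%, 19.4% and 21% hold these over the same length. A match is a description of the letters and not evidence of binding.

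Snai2 (ENSMUSG00000022676, chr16:14705852-14709385, plus strand), which encodes SLUG, was likewise open at its start in all libraries. The region over the TSS, chr16:14705728-14705953, had a percentile of 86.5 (BM1), 70.3 (BM5), 90.7 (BM2), 82.7 (BM6), 62.9 (BM3), 90.2 (BM7), 91.9 (BM4) and 87.9 (BM8). BM3 was lowest, and the other Lats1-CKO libraries overlapped with WT. A neighboring upstream region at chr16:14705434-14705626 was called in all libraries but BM3, at percentiles from 60.4 (BM6) to 85.7 (BM7). The other 3 regions of Snai2 were each called in 1 library only, a pattern of 44.5% of all regions. The sequence of the start-site region is shown as that nearest the TSS. Of the 3 regions called in every library, this start-site region had the narrowest range of percentiles.
Snai2 promoter, chr16:14705728-14705851, plus strand: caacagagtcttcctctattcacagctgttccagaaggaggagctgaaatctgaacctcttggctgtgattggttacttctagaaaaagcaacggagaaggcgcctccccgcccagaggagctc
None of the 3 motifs was in this stretch of 124 bases.

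Twist1 (ENSMUSG00000035799, chr12:33957671-33959829, plus strand) had a region over its TSS, 5′ UTR and first coding exon, chr12:33957429-33958188. The percentile there was 68.3 (BM1), 0 (BM5), 66.1 (BM2), 47.1 (BM6), 61.3 (BM3), 52.3 (BM7), 64.7 (BM4) and 79.4 (BM8). It was thus called in BM3, the library with the fewest peaks, and missing from BM5 alone. Just upstream, at chr12:33956901-33957109, a region was called in BM7 (9.77), BM4 (40.0) and BM8 (21.9) and in none of the 4 WT libraries nor in BM3. A downstream region, 16342 bp from the TSS at chr12:33973844-33974182, had the other order: 91.0 (BM1), 80.9 (BM5) and 86.0 (BM2), but 0 (BM6), 24.3 (BM3), 55.7 (BM7), 0 (BM4) and 8.57 (BM8). There 3 of 4 WT libraries were above all Lats1-CKO libraries, and BM6 was the exception. With lists held to 50000 peaks the upstream region was called in no library. Its sequence is shown because it was separated by genotype over the whole lists without BM3. The promoter side of the TSS peak is shown as part of the region nearest the TSS.
Twist1 upstream, chr12:33956901-33957109, plus strand: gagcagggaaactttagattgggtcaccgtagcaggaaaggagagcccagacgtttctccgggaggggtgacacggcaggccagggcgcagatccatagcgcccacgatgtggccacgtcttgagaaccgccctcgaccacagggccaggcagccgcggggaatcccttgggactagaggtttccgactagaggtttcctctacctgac
Twist1 promoter, chr12:33957429-33957670, plus strand: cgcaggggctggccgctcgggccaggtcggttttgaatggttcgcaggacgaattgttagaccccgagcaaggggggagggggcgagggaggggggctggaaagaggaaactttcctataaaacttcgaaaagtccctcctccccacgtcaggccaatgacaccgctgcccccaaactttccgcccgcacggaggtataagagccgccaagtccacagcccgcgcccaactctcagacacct
Neither stretch held any of the 3 motifs.

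Twist2 (ENSMUSG00000007805, chr1:91801461-91848028, plus strand) differed from Twist1 in that its TSS was rarely called. The region over the start, chr1:91801286-91801703, had a peak in 3 basal-like libraries, with percentiles of 10.9 (BM2, WT), 46.6 (BM4) and 67.0 (BM8, Lats1-CKO), and in no luminal library nor in BM6. The leading element lay in the intron, 15299 bp from the TSS at chr1:91816517-91817021. Its percentile was 94.6 (BM2), 91.4 (BM6), 98.3 (BM4) and 95.3 (BM8, basal-like), and 89.9 (BM1), 85.0 (BM5), 0 (BM3) and 91.2 (BM7, luminal). Every basal-like library lay above every luminal one, although BM6 and BM7 differed by little. Another intronic region, 22188 bp from the TSS, ranged from 61.7 (BM2) to 98.9 (BM8) and was not called in BM5 or BM3. Sequences are given for the start, called in basal-like libraries only, and for the intronic element.
Twist2 promoter, chr1:91801286-91801460, plus strand: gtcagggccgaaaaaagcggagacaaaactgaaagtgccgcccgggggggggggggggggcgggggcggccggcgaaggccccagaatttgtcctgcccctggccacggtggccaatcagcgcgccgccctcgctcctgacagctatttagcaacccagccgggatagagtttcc
Twist2 intron, chr1:91816619-91816918, plus strand: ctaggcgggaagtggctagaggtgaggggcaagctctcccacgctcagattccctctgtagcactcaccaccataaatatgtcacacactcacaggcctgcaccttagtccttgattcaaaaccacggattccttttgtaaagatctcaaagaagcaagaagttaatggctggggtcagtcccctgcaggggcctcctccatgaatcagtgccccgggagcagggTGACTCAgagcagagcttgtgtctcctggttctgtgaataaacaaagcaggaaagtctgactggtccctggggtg
The intronic stretch held 1 AP-1 motif, as did 23.8% of all regions over the same length. The promoter stretch held none of the 3 motifs.

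Zeb2 (ENSMUSG00000026872, chr2:44983632-45117395, minus strand) had its highest numbers of peaks in Lats1-CKO basal-like libraries. Its window held 6 (BM1) and 3 (BM5) peaks, 4 (BM2) and 7 (BM6), 0 (BM3) and 7 (BM7), and 12 (BM4) and 13 (BM8). The last pair exceeded every other library. A start-site region at chr2:45110056-45110510, over the TSS, UTR and coding exon of Zeb2 transcripts and 7112 bp inside the gene, was among the high-scoring peaks of all libraries but BM3, with percentiles of 89.1 (BM1), 95.5 (BM5), 94.6 (BM2) and 88.0 (BM6) in WT and 87.7 (BM7), 95.6 (BM4) and 89.4 (BM8) in Lats1-CKO libraries. At the outermost 5′ end of the gene peaks were sparse: within 1 kb they were called only in BM1 and BM4. Of the 20 regions of Zeb2, 12 were called in Lats1-CKO libraries only, 1 in WT libraries only and 10 in 1 library only, where 39.2%, 16.5% and 44.5% of all regions had these patterns.
Among these, an intronic region at chr2:45085740-45085988 was called in all basal-like libraries, at percentiles of 1.69 (BM2), 22.5 (BM6), 79.1 (BM4) and 18.5 (BM8), and in no luminal library. An intronic region at chr2:45103012-45103219 was listed in BM7 (35.4), BM4 (28.8) and BM8 (70.3), with no peak in WT or BM3. Over the whole lists the same libraries alone listed chr2:45109561-45109726, at lower percentiles (9.77, 14.5 and 13.7), in an exon of a non-coding transcript of Zeb2. Both intronic sequences and the stretch of the start-site region free of exons are shown on the strand of the gene.
Zeb2 intron, basal-like, chr2:45085740-45085988, minus strand: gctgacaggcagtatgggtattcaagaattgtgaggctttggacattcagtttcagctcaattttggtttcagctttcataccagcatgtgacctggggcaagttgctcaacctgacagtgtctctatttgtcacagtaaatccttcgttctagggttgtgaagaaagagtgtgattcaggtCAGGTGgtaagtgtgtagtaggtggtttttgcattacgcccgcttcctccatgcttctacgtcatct
Zeb2 intron, Lats1-CKO, chr2:45103012-45103219, minus strand: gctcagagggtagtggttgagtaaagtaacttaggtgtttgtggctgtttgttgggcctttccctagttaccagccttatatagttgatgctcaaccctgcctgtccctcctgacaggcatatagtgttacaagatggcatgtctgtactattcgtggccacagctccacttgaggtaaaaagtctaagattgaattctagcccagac
Zeb2 start site, chr2:45110289-45110347, minus strand: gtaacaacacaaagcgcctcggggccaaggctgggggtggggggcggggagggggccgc
The first held 1 CAGGTG, which 16.5% of all regions hold over this length, and the others none of the 3 motifs.

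**Figure D2:**
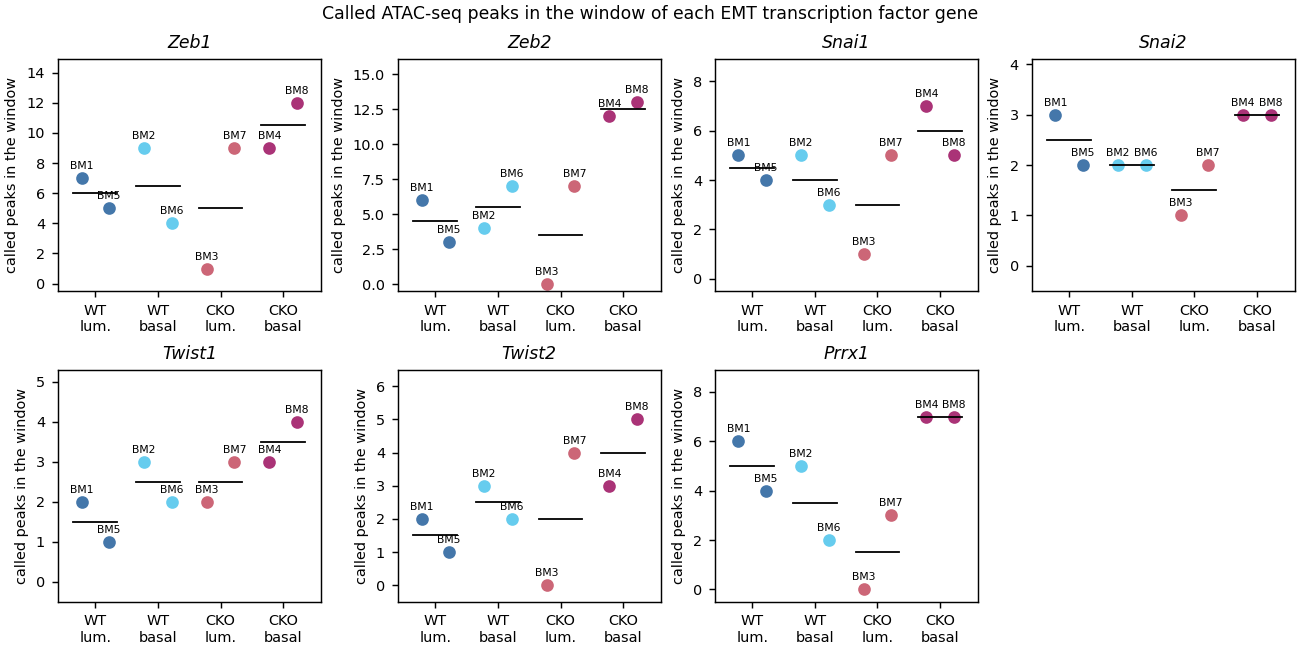
Number of called peaks in the window of each gene (y axis) in the WT and Lats1-CKO (CKO) luminal (lum.) and basal-like (basal) groups. Each point is a library and each line the mean of 2; for Zeb2 the 2 Lats1-CKO basal-like libraries hold 12 and 13 peaks, above the range of 0 to 7 in the others, while BM3 is at 0 to 2 for every gene.

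Zeb1 (ENSMUSG00000024238, plus strand of chromosome 18, from 5591860 to 5775467) had a weakly scoring promoter and strong intronic peaks. Within 1 kb of a TSS the highest percentile was 36.9 (BM1), 37.2 (BM5), 40.9 (BM2), 30.4 (BM7), 45.1 (BM4) and 40.4 (BM8), and no such peak was called in BM6 or BM3. An intronic region from 5740386 to 5740775, 9500 bp past the nearest TSS, was called in all 8 libraries. There the percentile was 80.4 (BM1), 95.5 (BM5), 94.1 (BM2) and 94.6 (BM6, WT), against 36.0 (BM3), 26.2 (BM7), 94.4 (BM4) and 66.9 (BM8, Lats1-CKO). All Lats1-CKO libraries but BM4 were below the WT libraries. The gene also held the only region of the 74 that was called in all 4 WT libraries and in no Lats1-CKO library, a pattern of 116 (0.0633%) of all regions. It lay 8129 bp upstream of the TSS, from 5583615 to 5583847, over an exon of the gene Gm10125, with percentiles of 87.8 (BM1), 44.9 (BM5), 64.2 (BM2) and 53.4 (BM6). Conversely, a region at an internal start site, 66 bp from it and from 5593145 to 5593339, was called in BM7 (11.6), BM4 (45.1) and BM8 (13.1) and in no other library. It overlaps the same Gm10125, and ATAC-seq carries no strand, so neither region can be assigned to one of the genes.

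Prrx1 (ENSMUSG00000026586, chr1:163245119-163313710, minus strand) had no start-site peak in any library. The nearest region, in a coding exon 1195 bp from the TSS (chr1:163312360-163312586), was called in 3 WT libraries, at percentiles of 9.61 (BM1), 40.7 (BM5) and 52.6 (BM2), and in no Lats1-CKO library. Its neighbor at chr1:163311915-163312164 was called in BM1 (83.9) and BM2 (82.9) only. The highest-ranking element was intronic (chr1:163273233-163273492): 54.9 (BM1), 62.4 (BM5), 91.9 (BM2), 0 (BM6), 0 (BM3), 94.0 (BM7), 90.5 (BM4) and 98.3 (BM8). It was not called in BM6 and BM3, and its remaining Lats1-CKO values overlapped with BM2. Over its whole window Prrx1 held 6 and 4 peaks in WT luminal, 5 and 2 in WT basal-like, 0 and 3 in Lats1-CKO luminal, and 7 and 7 in Lats1-CKO basal-like libraries. Within luminal cells both Lats1-CKO libraries were below both WT libraries, and within basal-like cells both were above, but with 2 against 2 libraries an exact test cannot go below p = 0.33 and none was made. The share of all genes with this pattern was not determined, so it cannot be called particular to Prrx1. With all lists but that of BM3 held to 50000 peaks, the numbers were 4 and 4, 5 and 2, 0 and 2, and 5 and 4 in the same order, and the basal-like groups overlapped.

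**Figure D3:**
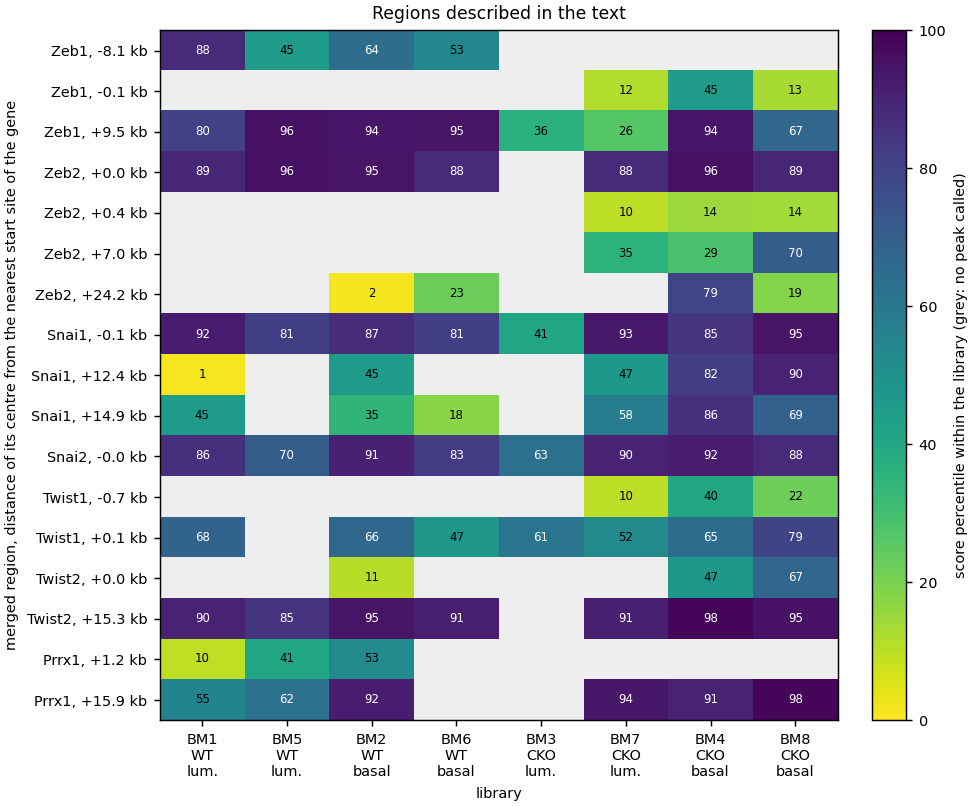
Score percentile within the library (color and number, grey where no peak was called) of the regions described for each gene (y axis, with the distance in kb of the region center from the nearest TSS) in the 8 libraries (x axis). The Zeb1 region upstream of the TSS is filled in the 4 WT libraries only, and the Twist2 region 15.3 kb inside the gene is highest in the basal-like libraries.

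The first comparison asked whether loss of Lats1 went with a different number of peaks at these genes. None of the 7 genes had every Lats1-CKO library above or every one below the WT libraries (0 of 7 each, where 0.0432% and 0.1% of the 43975 genes with a peak did). Zeb2 averaged 8 ± 5.94 peaks in Lats1-CKO and 5 ± 1.83 in WT libraries (SD, n = 4 each), a difference smaller than the spread (p = 0.4, two-sided exact permutation test). For Zeb1 the means were 7.75 ± 4.72 and 6.25 ± 2.22 (SD, n = 4, exact permutation p = 0.629), and for Twist1 3 ± 0.816 and 2 ± 0.816 (SD, n = 4, exact permutation p = 0.286). Twist2 differed by 1, Snai1 by 0.25, and Snai2 and Prrx1 by 0. The smallest p that 4 against 4 libraries allow is 0.029, and adjusted over all genes every p was 1. The median difference over the 7 genes was 1, against 0.25 over all genes, and without BM3 it was 1.42 against 0.75. All genes were not matched to the 7 for window length or number of peaks. These medians therefore do not show a larger shift at the 7 genes.

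Without BM3 all 7 genes had higher means in Lats1-CKO libraries, and so did 80.3% of all genes; the 3 remaining Lats1-CKO lists, of 86279 to 99022 peaks, were longer than any WT list, of up to 72685. The difference was largest for Zeb2, at 5.67 peaks (exact permutation p = 0.0571), followed by Zeb1 at 3.75 (p = 0.114, exact permutation test). Again 0 of the 7 genes were separated upward, where 10.6% of all genes were, and 0 downward, where 0.121% were. When the lists were held to 50000 peaks, which left BM3 at its 14753, the direction for Zeb1 turned, with 5 (BM1), 4 (BM5), 6 (BM2) and 4 (BM6) peaks in WT against 1 (BM3), 2 (BM7), 3 (BM4) and 4 (BM8) in Lats1-CKO libraries. The difference was -2.25 peaks (exact permutation p = 0.0857), and -1.75 without BM3, among lists of equal length (exact permutation p = 0.171), so neither passed the test. Zeb2 then had 7 peaks in each of BM4, BM8 and BM6 and 3 peaks in each of BM1, BM5, BM2 and BM7. At this length BM4 and BM8 did not exceed BM6.

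By score percentile, 1 of the 74 regions was separated by genotype, the Zeb1 upstream region called in WT libraries only. Its mean difference was -62.6 percentile points (exact permutation p = 0.0286, adjusted p = 1 over all regions), and 0.34% of all regions were separated in that direction. No region of the 7 genes (0 of 74) had all Lats1-CKO libraries above WT, where 0.0628% of all regions did. Without BM3, 6 regions were above: those described at Snai1 (both downstream regions), Twist1 (upstream), Zeb1 (internal start site) and Zeb2 (chr2:45103012-45103219 and chr2:45109561-45109726). The share of all regions in that direction was then 5.55%, and 0.355% were below, among them the same Zeb1 region. Held to 50000 peaks and without BM3, the 7 genes had 43 regions, of which 1 was above and 1 below WT, namely the farther downstream region of Snai1 and the Zeb1 upstream region. Of all regions at this length 1.99% were above and 1.99% below. The Snai1 region then had percentiles of 20.3 (BM1), 0 (BM5), 7.82 (BM2) and 15.4 (BM6) against 21.2 (BM7), 76.0 (BM4) and 38.2 (BM8), so that BM1 and BM7 differed by little.

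Of the 74 regions, 36 (48.6%) were called in Lats1-CKO libraries only, against 39.2% of all regions, and 9 (12.2%) in WT libraries only, against 16.5%. The regions called in BM4 and BM8 and in no WT library numbered 5 (6.76%, against 3.48%). Called in BM8 alone, the library with the longest list, were 14 (18.9%, against 11.6%). These shares were not tested.

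The second comparison set basal-like against luminal libraries. In peak number, 0 of the 7 genes had every basal-like library above every luminal one, where 0.291% of all genes did, and 0 below, where 0% did. All 7 means were higher in basal-like libraries, as were 69.2% of those of all genes, and without BM3 still 7 of 7, with 51.4% of all genes. Zeb2 averaged 9 ± 4.24 peaks in basal-like and 4 ± 3.16 in luminal libraries (SD, n = 4 each, exact permutation p = 0.143). Zeb1 averaged 8.5 ± 3.32 and 5.5 ± 3.42 (SD, n = 4, exact permutation p = 0.314), and Prrx1 5.25 ± 2.36 and 3.25 ± 2.5 (SD, n = 4, exact permutation p = 0.343). The median difference of the 7 genes was 1.5 peaks, against 0.5 over all genes, and without BM3 it was 0.917 against 0.0833. Here too the genes were not matched for window length or number of peaks. The same limit holds for the shares of higher means in both comparisons. Without BM3, 0 of 7 were separated upward and 0 downward, where 0.296% and 0.457% of all genes were.

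Of the 74 regions, 2 had all basal-like above all luminal libraries, where 0.527% of all regions did, and 0 of 74 were below, where 0.0502% were. They were the Twist2 intronic element and the Zeb2 intronic region called in basal-like libraries only. The mean differences were 28.4 and 30.5 percentile points (exact permutation p = 0.0286 each, adjusted p = 1 over all regions). Without BM3 the Twist2 difference was 6.22 points (exact permutation p = 0.0571), so that most of the difference rested on BM3, where no peak was called. The Zeb2 difference stayed at 30.5 points (exact permutation p = 0.0571). Both regions were still separated without BM3, where 0.532% of all regions were above and 1.11% below (0 of 74 of these genes). The WT values of the Zeb2 region were low, 1.69 and 22.5. Held to 50000 peaks and without BM3, 1 of 43 regions was above, the Twist2 element, where 0.924% of all regions were, and 1 of 43 was below, where 1.44% were. The latter was the Snai2 region upstream of its start, with 62.6 (BM2), 59.3 (BM6), 54.0 (BM4) and 70.01 (BM8) in basal-like against 74.6 (BM1), 73.1 (BM5) and 73.3 (BM7) in luminal libraries; over the whole lists it was not separated. By presence alone, 32 of the 74 regions (43.2%) were called in basal-like libraries only, against 31.7% of all regions, and 5 (6.76%) in luminal libraries only, against 19.5%.

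Epithelial genes that SNAI and ZEB proteins are known to repress had few called start sites in Lats1-CKO basal-like libraries. Of 8 such genes (Cdh1, Epcam, Cldn3, Cldn4, Cldn7, Ocln, Crb3 and Dsp), a start-site peak was called for 8 and 8 in WT luminal, 7 and 8 in Lats1-CKO luminal, 6 and 5 in WT basal-like, but 2 and 1 in Lats1-CKO basal-like libraries, where 57.2% (BM4) and 58.3% (BM8) of all protein-coding genes had one. Of 17 epithelial antagonists, described further on, 14 and 13 in WT luminal, 6 and 15 in Lats1-CKO luminal, 13 and 11 in WT basal-like, and 8 and 10 in Lats1-CKO basal-like libraries had such a peak. Of the 8 repressed genes, BM3 had such a peak at 7, although its list was the shortest. With each library other than BM3 held to 50000 peaks the counts were 8 and 8, 7 and 6, 6 and 5, and 0 and 0 in the same order. For Cdh1 the percentile was 89.1 (BM1), 91.4 (BM5), 87.9 (BM2), 67.2 (BM6), 79.3 (BM3) and 92.9 (BM7), with no peak in BM4 and BM8. Epcam and Cldn3 were also called in the same 6 libraries and in neither of these. Epcam encodes the protein by which the cells were sorted, and the basal-like gate took EpCAM-low cells. The 15 target genes were split into epithelial and mesenchymal ones with their values known, and the counts were not tested.

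**Figure D4:**
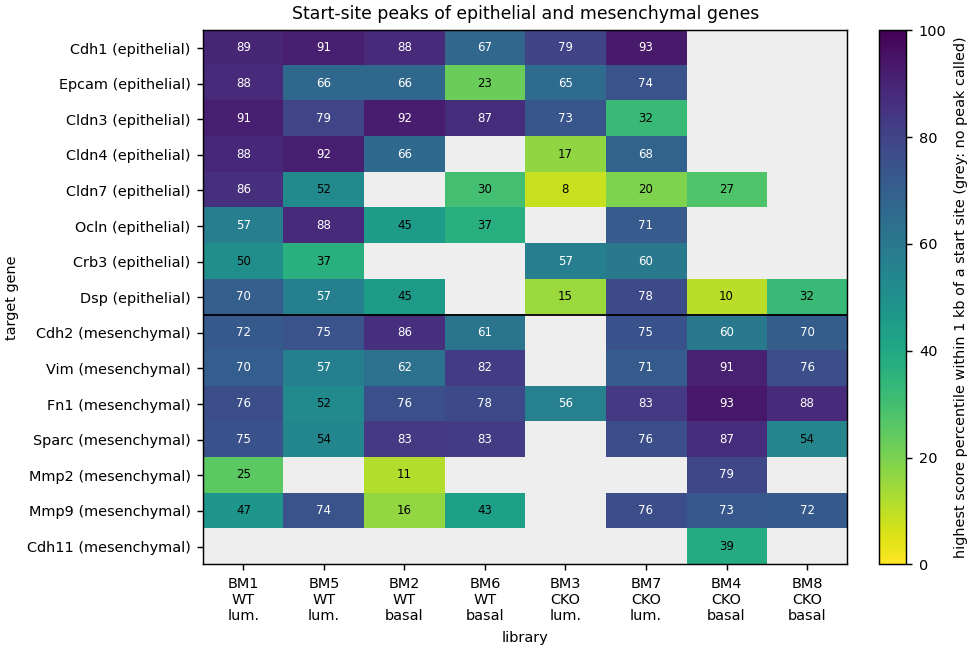
Highest score percentile of a peak within 1 kb of a TSS (color and number, grey where none was called) for 8 epithelial and 7 mesenchymal target genes of the EMT factors (y axis) in the 8 libraries (x axis). The epithelial genes are nearly empty in BM4 and BM8 (Lats1-CKO basal-like), with 2 and 1 of 8 called, and the mesenchymal genes Vim, Sparc and Cdh2 are filled in all libraries apart from BM3.

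Of the 7 mesenchymal targets, 6 and 5 had a start-site peak in WT luminal, 6 and 5 in WT basal-like, 1 and 5 in Lats1-CKO luminal, and 7 and 5 in Lats1-CKO basal-like libraries. Vim, the intermediate filament gene, Cdh2, encoding N-cadherin, and Sparc, a matricellular protein gene, were called in all libraries but BM3, and Fn1, encoding fibronectin, in all 8. Cdh11, a cadherin gene of mesenchymal cells, was called in BM4 only, at 38.6, and Mmp2 in BM1, BM2 and BM4, at 25.3, 11.4 and 78.8.

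By number of peaks, none of the 15 targets, of the 15 other EMT factors or of the 17 epithelial antagonists (OVOL, GRHL, ESRP, ETS and KLF genes and the miR-200 and miR-205 loci) was separated by genotype or by population over all 8 libraries. Without BM3, 3 of the 15 other factors were higher in Lats1-CKO: Snai3, a relative of Snai1, with 7 peaks in each against 5 to 6 in WT, Foxc2, a forkhead factor, with 8 to 9 against 5 to 7, and Tcf4, an E-protein gene, with 17 to 25 against 8 to 13. Of the targets, Sparc was higher in Lats1-CKO, with 6 to 11 peaks against 3 to 4 in WT. In the other comparison without BM3, the ETS factor gene Elf3 was lower in basal-like libraries, with 2 to 4 peaks against 5 to 6 in luminal ones, and so was Cldn3, a tight junction gene, with 5 to 6 against 7 to 8. The background shares were those given above for all genes without BM3, 10.6% for higher in Lats1-CKO and 0.457% for lower in basal-like libraries.

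Of 12 fibroblast markers, a start-site peak was called for 2 and 3 in WT luminal, 4 and 3 in WT basal-like, 0 and 2 in Lats1-CKO luminal, and 7 and 5 in Lats1-CKO basal-like libraries. Of all protein-coding genes, 57.2% (BM4) and 58.3% (BM8) had one, within the 50.9% (BM5) to 59.3% (BM7) of the libraries other than BM3. The marker counts of BM4 and BM8 were thus higher than in the other libraries while the share of all genes was not. This was not tested. The paper reports more cells assigned to fibroblasts, to a varying extent, in Lats1-CKO cultures profiled without sorting. The libraries with the highest counts, BM4 (7), BM8 (5) and BM2 (4, against 3 in BM5 and BM6), were also those with the Twist2 start-site peak. Of the other factors named as typical of stromal and mesenchymal cells, Prrx1 had no start-site peak and Zeb1 had one in 6 libraries. This match of libraries was not tested. Col3a1, Col6a3, Lum and Tcf21 had no such peak in any library, and Postn and Thy1 had it in BM4 only. Of 8 immune markers the counts were 3 and 2, 2 and 1, 0 and 3, and 3 and 5 in the same order of groups, and Adgre1, Itgam and Cd3e had none. Of 6 endothelial markers they were 2 and 0, 1 and 1, 0 and 1, and 2 and 1. By number of peaks without BM3, 3 of the 8 immune markers were higher in Lats1-CKO, namely Csf1r with 5 to 8 against 0 to 3 in WT, Spi1 with 5 to 7 against 4, and Cd3e with 2 to 5 against 0 to 1. So were 1 of 12 fibroblast markers, Col6a3, with 7 to 16 against 3 to 5, and 1 of 6 endothelial markers, Pecam1, with 8 to 10 against 3 to 6, beside the 10.6% of all genes. The part of such cells in the peaks of the EMT factors was not tested, and in sorted bulk cells a share of other cells and a change within the cells cannot be told apart.

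**Figure D5:**
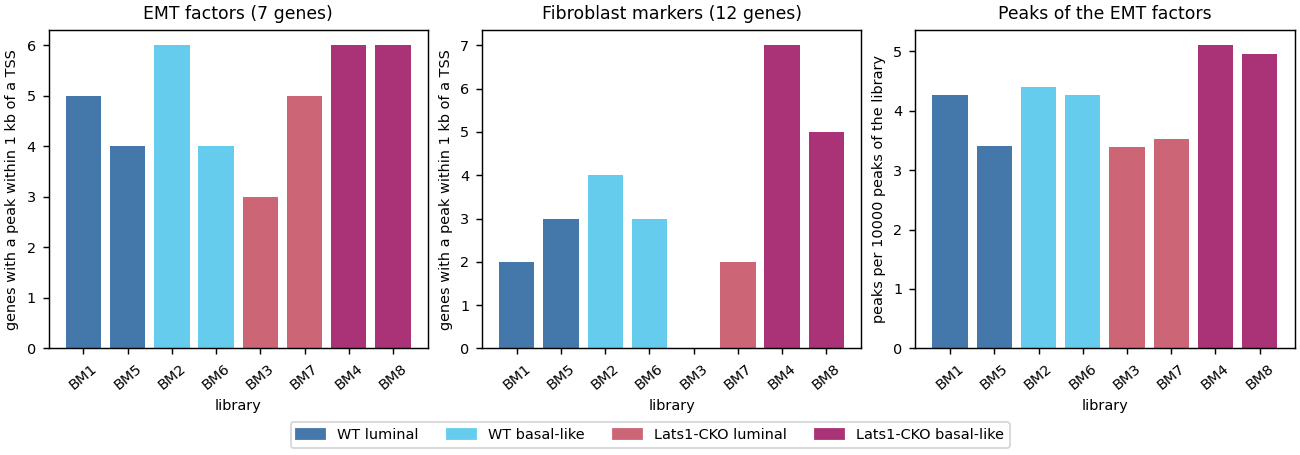
Number of EMT factor genes (left, of 7) and of fibroblast markers (middle, of 12) with a start-site peak, and peaks in the windows of the EMT factors per 10000 peaks of the library (right), with 1 bar per library colored by group and axes from 0. BM4 and BM8 (Lats1-CKO basal-like) have 6 of 7, 7 and 5 of 12, and 5.10 and 4.95 per 10000.

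Across the 8 libraries, the protein-coding genes whose numbers of peaks were most like those of the EMT factors were Fndc3b for Zeb1 (Pearson r = 0.996), Slc24a1 for Zeb2 (0.993), Cd9 for Twist2 (0.992), Purb for Twist1 (0.987) and Atad1 for Snai1 (0.986). Apoc3 had the same numbers as Snai2 in every library (r = 1). All 8 points share the length of the list of peaks, and the number of genes with r over 0.9 ranged from 56 for Twist1 to 1781 for Twist2, so these values describe the pattern only.

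Both strands of the central 200 bp of each region were read for the 3 motifs. CAGGTG was present in 12 of the 74 regions (16.2%) and in 13.6% of all regions. TGAGTCA was present in 17 (23%, against 21.4%), and GGAATG in 10 (13.5%, against 15.8%). The regions of the EMT factors thus held these motifs at shares near those of all regions. CAGGTG was found in regions of all 7 genes, from 1 of 12 at Prrx1 to 4 of 22 at Zeb1 and 2 of 5 at Snai1.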

How the data were processed

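ATAC-seq libraries of sorted PyMT cells were made by the authors from about 50000 cells each. Per the paper's methods, cutadapt trimming and unique alignment with bowtie to mm10 came first, mitochondrial, duplicate and long fragments were removed, and peaks were called with MACS2 and cleared of the ENCODE blacklist; the submitters' processing notes give Bowtie 1.0.0, Picard 2.3.0 and MACS2 2.1.1.20160309, and the methods another MACS2 version. For every library the authors deposited its called peaks with a score, at least 13 throughout, taken from its values to be that of MACS2. It grows with sequencing depth and is not normalized between libraries, so it was converted to a percentile within the library (average ranks). The study left out an unnamed Lats1-CKO luminal replicate over its quality; all 8 libraries were kept.

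The 7 genes and all gene lists were chosen with earlier results of these data known. GENCODE M21 gave the TSSs and the GRCm38.p6 reference of RefSeq the sequence, which is not the strain of the cells; bases of protein-coding exons were left out, as was sequence of chromosome 18. The 4 Lats1-CKO and 4 WT, and the 4 basal-like and 4 luminal libraries, were compared by two-sided exact permutation tests of means (70 splits, or 35 without BM3), fitted for all genes with a peak and all regions with Benjamini-Hochberg adjustment. Groups were called separated when every library of one lay above every library of the other. The regions named are, for each gene, the one nearest a TSS, the one with the highest median percentile, those separated and those in all 8 libraries; the other regions, and the split of the targets, were added after their values were seen. Alternatives were each library left out, the 50000 or 10000 highest-scoring peaks, 5 kb windows, peaks nearest to the gene, numbers per 10000 peaks, another merging (100 bp) and another overlap. Steps were tested on simulated data. python 3.11.15, numpy 2.4.6, pandas 2.3.3 and scipy 1.17.1 were used. The DiffBind comparison of the study needs reads and was not repeated. The gene most like Prrx1 in peak number is not reported here.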

Additional observations from a re-analysis of the deposited data

Results flagged for a closer look

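For Prrx1, the difference in peak number between Lats1-CKO and WT had opposite signs in the sorted populations: it was -3.5 in luminal cells, where both Lats1-CKO libraries were below both WT libraries, and 3.5 in basal-like cells, where both were above. This difference was not tested, since 2 against 2 libraries allow no p below 0.33. The share of all genes with such opposite signs was not determined. BM3 is 1 of the 2 Lats1-CKO luminal libraries; the other, BM7, had 3 peaks against 6 and 4 in WT. With 50000 peaks at most per library, the basal-like groups overlapped (5 and 4 against 5 and 2).

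Within 96 groups of 4 libraries, a single library stood far from the other 3 for 19 values. Many of these groups hold several zeros, and many of the regions were picked for being separated between groups, so no chance rate applies. BM3 was lowest at the Snai2 start site (62.9) and had no peak (0) at the Zeb2 start site and the Twist2 and Prrx1 intronic elements, the first pair both among Lats1-CKO and among luminal libraries. BM7 was highest of the luminal libraries at the Zeb1 internal start site (11.6), the Zeb2 regions (9.77 and 35.4), the nearer downstream region of Snai1 (46.9) and the upstream region of Twist1 (9.77). These regions were picked for having the Lats1-CKO libraries other than BM3 above WT, and BM3 had no peak there. BM7 therefore had to be the highest luminal library in them. BM2 was highest of the WT libraries at the same Snai1 region (45.0) and at the Twist2 start site (10.9), and highest of the basal-like ones at the Prrx1 coding exon (52.6). BM6 was highest of the WT libraries at the Zeb2 region called in basal-like libraries (22.5) and lowest of the basal-like ones at the Prrx1 intronic element (0). At the Zeb1 intronic region, BM1 was lowest of the WT (80.4) and BM8 lowest of the basal-like libraries (66.9). For Snai2, BM1 had 3 peaks where the other WT libraries had 2.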

How the results depend on the processing

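No paired analysis was possible because the labels give the libraries no pairing between groups. The number of genes separated by genotype or population stayed at 0 in every alternative run. Regions separated by genotype numbered 1, ranged from 1 to 7 when 1 library was left out (without BM3 6 above and 1 below WT, without BM6 0 and 4, without BM4 0 and 2), and were 0 with the 10000 highest-scoring peaks and with 5 kb windows. Without BM3 and with the 50000 highest-scoring peaks, an alternative chosen after seeing the data, there were 2, 1 in each direction. Regions separated by population numbered 2, ranged from 2 to 5 with 1 library left out (without BM2 4 above and 1 below luminal, without BM6 4 and 0), and were 1 each with the 50000 and the 10000 highest-scoring peaks and under the stricter overlap. The mean number of genes with a start-site peak was 1.25 higher in basal-like libraries, 0.833 higher without BM3 and 0 higher with the 10000 highest-scoring peaks. Its difference between Lats1-CKO and WT was 0.25, 0.917 without BM3 and -0.5 with the 10000 highest-scoring peaks. Neither start-site difference was tested. Differences in peak number between Lats1-CKO and WT turned negative for Zeb1 with the 50000 (-2.25, and -1.75 without BM3) and 10000 (-0.75) highest-scoring peaks, for Zeb2 (-0.75), Twist1 (-0.25) and Twist2 (-0.25) with 10000, and for Snai1 per 10000 peaks (-0.0329) and with 1 library left out (from -0.583 without BM4 to 1.42 without BM3, and -0.167 without BM6). Twist1 was at -0.0833 with 50000 peaks and without BM3. Prrx1, at 0, ranged from -0.917 without BM4 or BM8 to 1.42 without BM3 and was -1 with 50000 peaks and -0.191 per 10000; Snai2, at 0, was -0.25 with 50000 peaks and -0.5 with 5 kb windows. Between populations they did so per 10000 peaks for Snai2 (-0.0805) and Twist1 (-0.139), and for Twist1 with 10000 peaks (-0.25). None of these differences in peak number passed the test in any setting, and the cause was not tested. With 4 libraries a group, p cannot go below 0.029.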
